A study of Rattus norvegicus with 24 samples.

Results

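Spink2 encodes a small secreted serine protease inhibitor with a Kazal domain, and it was 1 of 25885 gene names on the rat array used to profile blood after diet and lipopolysaccharide (LPS) treatment. All non-control probes with the gene name Spink2 were taken, which gave 2 of 30367 probes, each printed as 2 spots. The gene was chosen because its ratios on these arrays differed between the groups, so the levels and group differences below are descriptions with errors and carry no test.

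Kazal-type inhibitors occupy the active site of trypsin-like serine proteases with an exposed loop held by disulfide bonds. Spink2 is best known from the male germ line, where it holds acrosin and related proteases inactive while the acrosome forms. In human blood formation its transcript is also known as a mark of early stem and progenitor cells. LPS is a cell wall component of Gram-negative bacteria that activates innate immune cells, and beta-glucans are cell wall polysaccharides of fungi and cereals that bind receptors on such cells.

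Blood RNA of single male Sprague-Dawley rats, aged 8 weeks when the 6-week diets began, was hybridized on 24 two-color arrays, 4 for each of 6 groups. The C groups received saline into the tail vein, and the LPS groups received E. coli LPS at 10 mg per kg, each by repeated injection a week apart. G0 is the semi-synthetic control diet. G1 and G2 are the same diet with oat beta-glucan added, of high molecular weight in G1 and of low molecular weight in G2, so the groups are C-G0, C-G1, C-G2, LPS-G0, LPS-G1 and LPS-G2. Every array carried the same reference, a pool of blood RNA from the rats of the experiment, so a log2 ratio of 0 is the level in that pool. In LPS-G0 replicates 3 and 4, the title gave an LPS injection and the injection label gave none. They were kept in LPS-G0 by title. The Spink2 values, list counts and named genes that rest on them are also given without them, except where stated.

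By the sample labels the rat RNA was in the Cy3 channel, whereas the study's methods put it in Cy5. Within groups, the log2 Cy3 signals had a median SD of 0.38 and the log2 Cy5 signals one of 0.26, over 7074 probes bright in both channels throughout. For 95.3% of these probes Cy3 had the larger SD. All ratios below are therefore log2 of Cy3 over Cy5, in the direction of the labels. On single arrays, 7786 to 15385 probes exceeded background in Cy3, with medians of 11202, 10561.5 and 13532 on the 3 slides of 8 arrays. Each slide held all 6 groups. Markers of erythroid cells (5 of 5 on the array), platelets (7 of 8), neutrophils (5 of 8) and T cells (7 of 10) were above background on all 24 arrays, including Hbb, Pf4, S100a8 and Cd3e, as for a blood label.

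The sequences show what was measured. The brighter Spink2 probe, A_64_P075853, lies at chr14:33251631-33251690 on the plus strand of rn4 and starts at base 449 of its target. The other, A_64_P075858, lies upstream at chr14:33249417-33249476, 2154 bases away, and starts at base 154 of its target. The deposited annotation gives no exon or UTR for either. The first 30 of the 60 bases of the brighter probe are printed first. The upstream probe is then set against that of Spink4 at chr5:58323932-58323991, a paralog with detectable signal, and capitals mark the 36 of 60 bases that match in the best ungapped alignment.
Spink2, brighter probe: tacgacccaggcaacttttgcctccttaat
Spink2, upstream probe: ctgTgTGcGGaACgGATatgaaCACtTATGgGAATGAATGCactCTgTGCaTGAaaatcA
Spink4 probe: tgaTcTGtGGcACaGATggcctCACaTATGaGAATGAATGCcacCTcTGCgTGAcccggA
Against the brighter Spink2 probe, the Spink4 probe matched at 21 of 59 aligned bases. All ratios below are those of the brighter probe unless the upstream probe is named.

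Spink2 was lowest in the saline groups on the G0 and G1 diets and highest in the LPS group on the G1 diet. In C-G0 the 4 log2 ratios were -1.08, -0.81, -0.82 and -0.59, with a mean of -0.83 ± 0.20 (SD, n = 4). In LPS-G0 they were 0.26, 0.69, 0.65 and -0.36, with a mean of 0.31 ± 0.49 (SD, n = 4). The groups did not overlap, although LPS-G0 replicate 4 lay well below the other three and only 0.23 above the highest C-G0 array, which shared its slide. Without LPS-G0 replicates 3 and 4 the group mean was 0.48.

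In C-G1 the ratios were -1.09, -0.69, -0.71 and -1.22, with a mean of -0.93 ± 0.26 (SD, n = 4). In LPS-G1 they were 0.80, 0.19, 1.25 and 0.93, with a mean of 0.79 ± 0.44 (SD, n = 4). The 3 highest of all 24 arrays were in LPS-G1, and the lowest 2 in C-G1, with a wide gap between the groups.

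On the G2 diet both groups lay near the pool. In C-G2 the ratios were 0.24, -0.54, 0.45 and -0.66, with a mean of -0.13 ± 0.55 (SD, n = 4). In LPS-G2 they were -0.05, 0.23, 0.42 and -0.48, with a mean of 0.03 ± 0.39 (SD, n = 4). These groups overlapped over most of their range. The C-G2 ratios fell into a high and a low pair, but only through the second spot (0.87, -0.63, 1.21 and -0.87). On the first spot all 4 lay between -0.46 and -0.32.

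**Figure D1:**
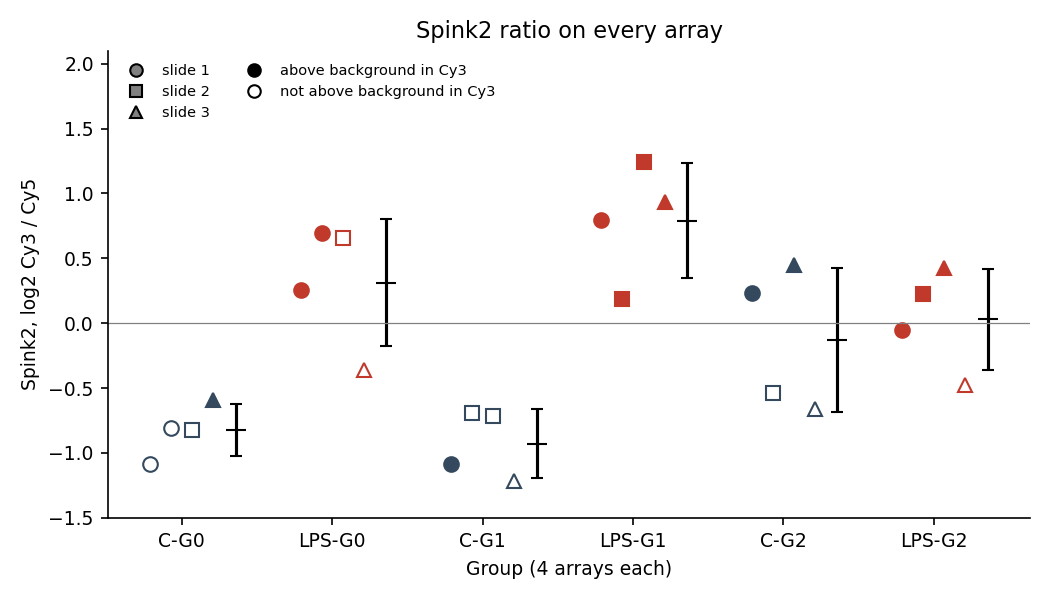
Log2 Cy3 over Cy5 of the brighter Spink2 probe on each of 24 arrays by group (saline dark, LPS red), with the slide as the symbol, filled where Cy3 exceeded background, and the mean and SD (n = 4) in black. All LPS-G1 arrays are filled and lie between 0.19 and 1.25, whereas the C-G1 arrays lie between -1.22 and -0.69 with 1 of 4 filled.

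In order of their means, the groups were LPS-G1, LPS-G0, LPS-G2, C-G2, C-G0 and C-G1. The gaps between neighbors were 0.48, 0.28, 0.16, 0.70 and 0.10, each with a standard error of 0.27 from a limma model over all 24 arrays. Only the gap between C-G2 and C-G0 was over 2 standard errors, and these 2 groups still overlapped at 1 array each. The other neighbors did not differ beyond their spread.

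The signals behind these ratios were low. A probe was taken as well above background on an array where at least 0.5 of its spots were, and in Cy3 this held for Spink2 on 13 of 24 arrays. It held on 4 of 4 arrays in LPS-G1, 3 in LPS-G2, 2 each in LPS-G0 and C-G2, and 1 each in C-G0 and C-G1. Both spots were above background on 3 LPS-G1 arrays and 1 LPS-G0 array, and on none in the other groups. The probe therefore passed the filter for the tests, 4 of 4 arrays in at least 1 group, through LPS-G1 alone.

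In Cy3 the mean processed signal was 39.9 in C-G0, 41.7 in C-G1 and 76.8 in C-G2, in scanner units. After LPS it was 93.8 on G0, 119 on G1 and 72.3 on G2. The reference channel was flat, with group means between 67.5 and 72.1 in Cy5. The lowest signal counted as above background on an array ranged from 23.3 to 71.2, with a median of 34.4, so several saline arrays were at the limit of measurement. In 4 of the 48 spots, all in C-G0 or C-G1, the Cy3 signal was a surrogate value that the software sets near the noise level.

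**Figure D2:**
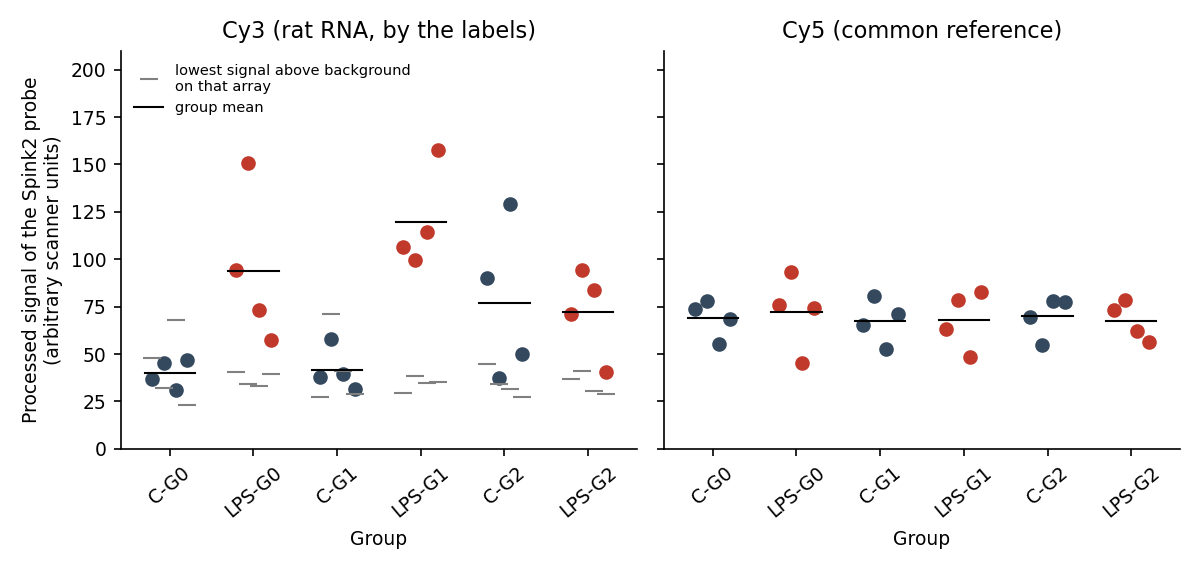
Processed Cy3 (left) and Cy5 (right) signals of the brighter Spink2 probe per array (saline dark, LPS red), in scanner units, with group means as lines and, for Cy3, each array's lowest signal above background as a gray dash. Cy3 means run from 39.9 in C-G0 to 119 in LPS-G1, whereas Cy5 means stay between 67.5 and 72.1.

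The comparison of LPS with saline on the same diet addresses the effect of the injection. Spink2 was 1.14 higher in LPS-G0 than in C-G0 (standard error 0.27), a 2.20-fold difference without overlap. Of all 10708 probes tested, 3.68% were higher in LPS-G0 without overlap. In LPS-G1 it was 1.72 higher than in C-G1 (standard error 0.27), a 3.29-fold difference of measured means without overlap, a pattern shared by 1.33% of probes. The C-G0 and C-G1 means behind both folds come from groups with the probe above background on 1 of 4 arrays, so the folds rest on signals near the limit of measurement. In LPS-G2 it was 0.16 higher than in C-G2 (standard error 0.27), which is within the spread. These contrasts chose the gene, and nothing is read from their place among the probes.

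Under limma with Benjamini-Hochberg adjustment over the 10708 probes, a call needed an adjusted p under 0.05 and a 2-fold change. The share called was 0% in LPS-G0 vs. C-G0, 0.00934% in LPS-G1 vs. C-G1 and 0% in LPS-G2 vs. C-G2. The 0.00934% is 1 probe, Spink2 itself. With slide as a block, after normexp and loess, from Cy3 alone and without the filter, 0 probes were called there, Spink2 included. The call is a value by which the gene was chosen and is given as a description.

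Averaged over the diets, Spink2 was 1.01 higher after LPS than after saline (standard error 0.16), and 1.06 (standard error 0.16) without LPS-G0 replicates 3 and 4. The 12 LPS arrays ranged from -0.48 to 1.25 with a median of 0.34. The 12 saline arrays ranged from -1.22 to 0.45 with a median of -0.70. The difference between LPS and saline was 0.58 larger on G1 than on G0 (standard error 0.39). The same difference on G2 minus that on G0 was -0.98, and on G2 minus that on G1 was -1.56 (standard error 0.39 each). Without LPS-G0 replicates 3 and 4, LPS-G0 minus C-G0 was 1.30 (standard error 0.32) and the G1 minus G0 and G2 minus G0 values were 0.42 and -1.14 (standard error 0.41 each).

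Within slides, the LPS minus saline difference on G0 was 1.42, 1.47 and 0.23 on slides 1, 2 and 3. On G1 it was 1.88, 1.42 and 2.15. On G2 it was -0.29, 0.77 and 0.08. The direction was thus the same on all slides for G0 and G1, and not for G2, with 1 or 2 arrays per group on a slide.

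Among saline rats, Spink2 was 0.70 higher in C-G2 than in C-G0 (standard error 0.27), with overlap. The high pair of C-G2 ratios lay above all C-G0 ratios, but not on the first spot alone, where C-G0 replicate 3 had 0.07. C-G1 minus C-G0 was -0.10 (standard error 0.27). Among LPS rats, LPS-G1 minus LPS-G0 was 0.48 and LPS-G2 minus LPS-G0 was -0.28 (standard error 0.27 each), both with overlap. Without LPS-G0 replicates 3 and 4 these were 0.32 and -0.44 (standard error 0.32 each), and 0 of 11304 probes were called in LPS-G1 vs. LPS-G0. Over all arrays, the share of probes called was 0.028% in C-G1 vs. C-G0 and again in C-G2 vs. C-G0. With LPS it was 0.028% for G1 vs. G0 and 0% for G2 vs. G0. Spink2 was not among them. Comparisons with C-G0 share its 4 arrays, and those with LPS-G0 share its 4.

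The 2 spots of the probe gave the same LPS difference of group means on the G0 diet, but not on the G1 diet. Single arrays differed between spots on both diets. Over the 24 arrays their Pearson's r was 0.41 and Spearman's rho 0.52, and their median absolute difference was 0.43. LPS-G0 minus C-G0 was 1.14 for either spot, but these groups overlapped on each spot alone. On the first, C-G0 replicate 3 had 0.07 and LPS-G0 replicate 4 had -0.21. On the second, C-G0 replicate 4 had -0.29 and LPS-G0 replicate 4 had -0.51. LPS-G1 minus C-G1 was 2.43 for the first spot and 1.01 for the second. On the second spot these groups overlapped, with 0.32 in C-G1 replicate 3 and -0.38 in LPS-G1 replicate 2. C-G1 minus C-G0 had opposite signs, -0.65 and 0.44, as did LPS-G2 minus C-G2, 0.38 and -0.06. C-G2 minus C-G0, the one gap over 2 standard errors between neighbors, was 0.34 and 1.05. The G1 saline mean therefore rests on 2 spots that disagree.

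Another background correction also changed the size. With normexp correction at an offset of 50 and loess normalization, LPS-G0 minus C-G0 was 0.24 and LPS-G1 minus C-G1 was 0.49 (standard error 0.13 each). The offset is of the order of the signals, and the order of these comparisons was unchanged. From the Cy3 signal alone, scaled to the 75th percentile of each array, they were 1.14 and 1.68 (standard error 0.33 each).

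**Figure D3:**
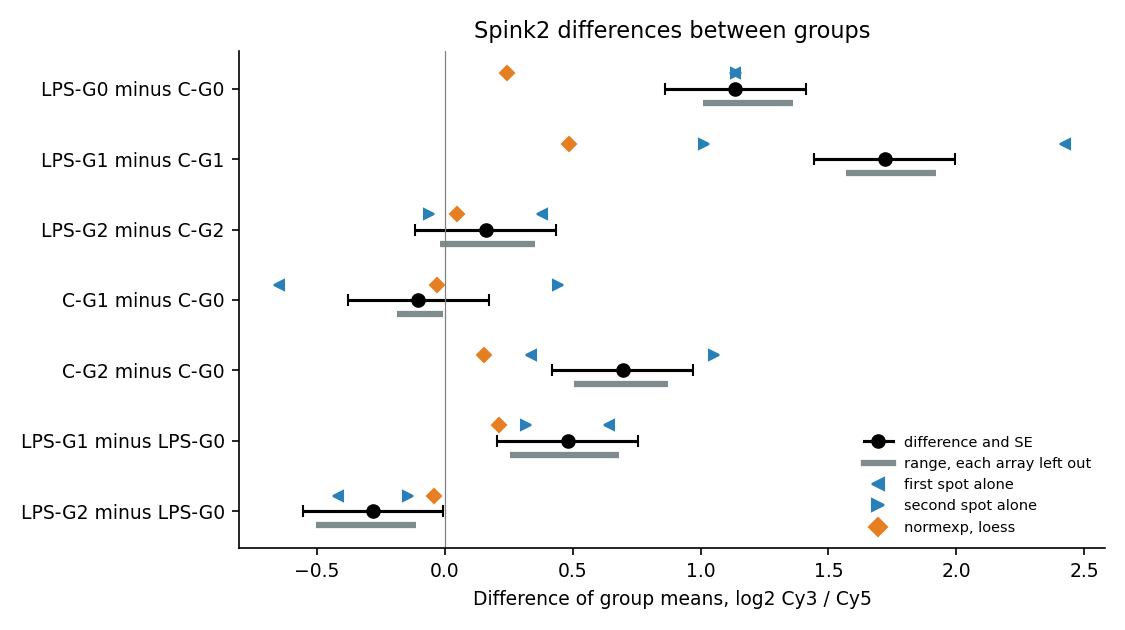
Spink2 difference in each of 7 comparisons, in log2 Cy3 over Cy5, as the difference with its standard error (black), the range when each array is left out (gray), each spot alone (blue) and normexp with loess (orange). LPS-G1 minus C-G1 is 1.72 with 2.43 and 1.01 from the single spots, and 0.49 after normexp and loess.

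The upstream Spink2 probe exceeded background in Cy3 on 0 of 24 arrays, and no fold difference is given for it. Its processed Cy3 signal ranged from 9.06 to 42.1. Its Cy3 signal was a surrogate value in 1 of 8 spots in LPS-G1 and in up to 6 of 8 in the other groups. Over the 24 arrays its ratio had a Pearson's r of 0.63 and a Spearman's rho of 0.52 with that of the brighter probe. Both rest in part on values set by the software. Its 4 LPS-G1 ratios, 0.08 to 1.46, were above those of C-G1, -1.10 to 0, but dim signals have no reliable order.

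The other Spink genes were next examined. The array held 12 Spink genes with 16 probes, and 9 of the genes, Spink2 included, had a probe above background in Cy3 on any array. Spink1, Spink5, Spink10, Spink13, Spink14 and Spink6, also Kazal inhibitors, reached 1, 1, 1, 1, 2 and 11 arrays and were not tested. Spink4 and Spink7 were tested. Spink4, known as a secretory product of intestinal goblet cells, was 0.76 higher in LPS-G0 than in C-G0, 0.51 higher in LPS-G1 than in C-G1 and -0.21 in LPS-G2 minus C-G2. Its 4 LPS-G0 ratios, 0.13 to 0.47, lay within the C-G0 range of -1.71 to 0.68. Spink7, an inhibitor known from squamous epithelium, differed by 0.06, -0.04 and 0.01 in the same comparisons. Neither was called in any of the 7 comparisons. Their r with Spink2 over 24 arrays was 0.25 and -0.14.

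Few possible partners of Spink2 could be tested. Of its protease group (acrosin, trypsins and related trypsin-like proteases), 20 of 23 genes were on the array and 4 were tested. Acr, the acrosin targeted in sperm, was above background on all 24 arrays and had an r of 0.26 with Spink2. Its LPS minus saline difference was 0.36, 0.43 and 0.23 on G0, G1 and G2. The kallikrein probe named Klk1c7 on the array, and Klk1 in RefSeq by its accession, had 0.40, 0.43 and 0.22, and Prss36, a protease with several trypsin-like domains, 0.12, 0.09 and 0.20. Between diets, the 4 had a median of -0.62 in C-G1 minus C-G0 and -0.69 in LPS-G1 minus LPS-G0, where Spink2 had -0.10 and 0.48. In both, Acr and the Klk1c7 probe were lower at an unadjusted p under 0.05 by limma. Beside these 2 of 4, 15.8% of all probes were lower in the first and 1685 of 10708 in the second. The second was not taken without LPS-G0 replicates 3 and 4 for these genes. Of 24 proteins with a Kazal domain outside the family, 3 were tested. They were the organic anion transporters Slco1a4 (r = 0.27), whose probe is named Slco1a2 on the array, and Slco3a1 (r = 0.02) and Agrn, agrin, the organizer of neuromuscular synapses (r = -0.05). Of 20 acrosome and spermatid genes, 10 were above background on no array and 1 was tested, the zona pellucida binding protein Zpbp2 (r = -0.12). Acrbp and Pick1, also of the acrosome, reached 9 and 5 arrays.

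Stem and progenitor genes had low correlations with Spink2. Of 26 genes on the list, 24 were on the array and 13 were tested, with a median r of 0.15 and a range of -0.23 to 0.33, beside a median of 0.04 over all tested probes. Cd34, Kit and Flt3, the surface receptors that define progenitors, were above background on 2, 5 and 4 of 24 arrays. The brightest members were Lyl1 and Nfe2, transcription factors of blood cells, with r of 0.09 and 0.29, and Spn, the leukocyte surface sialophorin, with 0.04. Sox4, a transcription factor of progenitor and lymphoid cells, was 0.46 higher in LPS-G0 than in C-G0, and Egfl7, a secreted vascular factor, 0.96 higher. Both had an unadjusted p under 0.05 and adjusted p of 0.41 and 0.43 by limma, and neither was called. They were the only tested members past that unadjusted threshold there, 2 of 13, beside 6.81% of all probes higher. The list median was 0.16, beside 0.02 over all probes.

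Blood carries many cell types, and fewer cells of a type cannot be told apart from less RNA per cell here. Of 207 genes on all lists, 86 were tested, and none was called by limma in any of the 7 comparisons. At an unadjusted p under 0.05, 10 were higher and 2 lower in LPS-G0 than in C-G0, where 6.81% of all probes were higher and 4.5% lower. In LPS-G1 vs. C-G1, 2 were higher and 0 lower, beside 1.99% and 0.822% of all probes. In LPS-G2 vs. C-G2, 0 were higher and 1 lower, beside 0.588% and 0.504%. By the methods' one-way analysis of variance with Tukey's test, 0 list members were called after adjustment in any comparison. Before adjustment, 1 of 86 members and 17 of 10676 probes passed at 2-fold in LPS-G0 vs. C-G0. In LPS-G1 vs. C-G1 it was 0 members and 3 probes, and in LPS-G2 vs. C-G2 neither any member nor any probe.

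With LPS-G0 replicates 3 and 4 left out, 10 list members were higher and 1 lower in LPS-G0 than in C-G0 at an unadjusted p under 0.05, beside 3.21% and 2.11% of all probes.

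Whether the LPS difference varied with the diet was tested in limma for the 86 list members, and 0 passed after adjustment. At an unadjusted p under 0.05 there were 3 for G1 against G0, beside 3.01% of all probes, 7 for G2 against G0, beside 5.57%, and 0 for G2 against G1, beside 1.01%. With the 2 LPS-G0 arrays left out these were 4, 7 and 0 members, beside 1.99%, 3.59% and 0.962%.

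Of all lists, the cytotoxic T and NK cell markers had the highest median r with Spink2, 0.34. All 6 tested members were higher in LPS-G0 than in C-G0 at an unadjusted p under 0.05, with a median of 0.98, beside 0.02 over all probes. They encode cytotoxic granule proteins (Gzma 1.24, Gzmb 1.35, Gzmk 1.097, Prf1 0.79 and Nkg7 0.87) and an NK cell receptor chain (Klrd1 0.67). Their adjusted p in limma was 0.41 to 0.42. This list was chosen with earlier results of these data known, and the study reports Gzma, Gzmb and Gzmk as higher in LPS-G0. The count of 6 is therefore a description and not a separate result. Without LPS-G0 replicates 3 and 4, all 6 again had an unadjusted p under 0.05, with differences of 0.74 to 1.42, beside 3.21% of all probes higher at that threshold. In LPS-G1 vs. C-G1 the median of the 6 was 0.12 and none reached that threshold. In LPS-G2 vs. C-G2 the median was -0.01.

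Saline rats on the other diets also had median differences from C-G0 above 0. The median of the 6 was 0.62 in C-G1 minus C-G0, with 2 of 6 higher at an unadjusted p under 0.05, beside 12.1% of all probes. In C-G2 minus C-G0 it was 0.65, with 4 of 6, beside 5.41%. C-G0 replicate 1 stood apart, with a mean ratio of -1.65 over the 6 markers, where the other C-G0 arrays had -0.54 to -0.06. Without it the LPS-G0 minus C-G0 median was 0.71 and 3 of 6 were higher at that threshold, beside 12.8% of all probes.

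The summed Cy3 signal of the 9 cytotoxic markers on the array ranged from 2959 to 7622 in C-G0 and from 6424 to 11066 in LPS-G0. It ranged from 4717 to 11242 in C-G1 and from 6048 to 11102 in LPS-G1. The defining markers Ncr1, Klrb1c and Klrg1 were above background on 11, 9 and 0 arrays. The part of these cells in the Spink2 differences was not tested.

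Of the other lists, neutrophil markers had mostly negative r with Spink2, with a median of -0.21 over 6 members. The brightest, S100a9, S100a8 and Cxcr2, the calprotectin subunits and a chemokine receptor, were -0.73, -0.53 and -0.60 in LPS-G0 minus C-G0. None of these reached an unadjusted p under 0.05 in limma. Camp, the cathelicidin of neutrophil precursors, had an r of -0.24. Ms4a3 and Cebpe of the same list were not tested. Fcgr3a, an IgG receptor on the neutrophil list, was 1.09 higher in LPS-G0 than in C-G0 and -0.85 in LPS-G2 minus C-G2, both at an unadjusted p under 0.05.

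Reticulocyte and erythroblast genes had a median r of 0.25, with 14 of 15 above 0. Hba1, alpha globin, had the highest, 0.47, beside 0.26 for Hbb and 0.18 for Alas2, the first enzyme of heme synthesis. In LPS-G1 minus C-G1 the erythroid transcription factor Gata1 and the erythroid ubiquitin ligase Trim58 were 0.56 and 0.78 higher at an unadjusted p under 0.05. The list's median there was 0.44, and 0.06 in LPS-G0 minus C-G0. In C-G1 minus C-G0 it was -0.87, with 7 of 15 lower at an unadjusted p under 0.05, beside 15.8% of all probes. The part of these genes in the Spink2 values was not tested. Slc4a1, the red cell anion exchanger, had an r of 0.05.

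Cell division genes had a median r of 0.17 over 11 members. Mki67, a proliferation marker, had 0.36, and Ube2c and Mcm3, of mitotic exit and DNA replication, had -0.15 and -0.26. Cdk1, the mitotic kinase, was 0.52 higher in LPS-G0 than in C-G0 at an unadjusted p under 0.05. It was the only member of the 11 past that threshold there, and their median was 0.22. Median r was -0.07 for B cell, -0.09 for T cell, 0.03 for monocyte and -0.01 for platelet markers. Bright members of these lists stayed between -0.28 and 0.28, namely Pax5 and Cd79b of B cells, Cd3d, Cd3g and Cd6 of T cells, Lyz2, Cx3cr1 and Cd68 of monocytes and Pf4, Itga2b and Gp9 of platelets. Ms4a1 of B cells and Cd3e of T cells were -0.91 and -0.61 in LPS-G0 minus C-G0 at an unadjusted p under 0.05. Prg2 of eosinophils had an r of -0.03, and Siglec8 and Ccr3 were not tested.

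The differences of these genes between LPS-G0 and C-G0 were also taken without LPS-G0 replicates 3 and 4. They were 0.84 for Spink4, 0.10 for Spink7, 0.39 for Acr, 0.42 for the Klk1c7 probe and 0.19 for Prss36. Sox4 at 0.47, Egfl7 at 1.07, Fcgr3a at 1.01 and Ms4a1 at -1.05 again had an unadjusted p under 0.05, whereas Cdk1 at 0.49 and Cd3e at -0.38 no longer did. S100a9, S100a8 and Cxcr2 had -0.60, -0.60 and -0.51, again short of that threshold. Lck, a kinase of T cells, was 0.56 higher and reached that threshold only then.

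**Figure D4:**
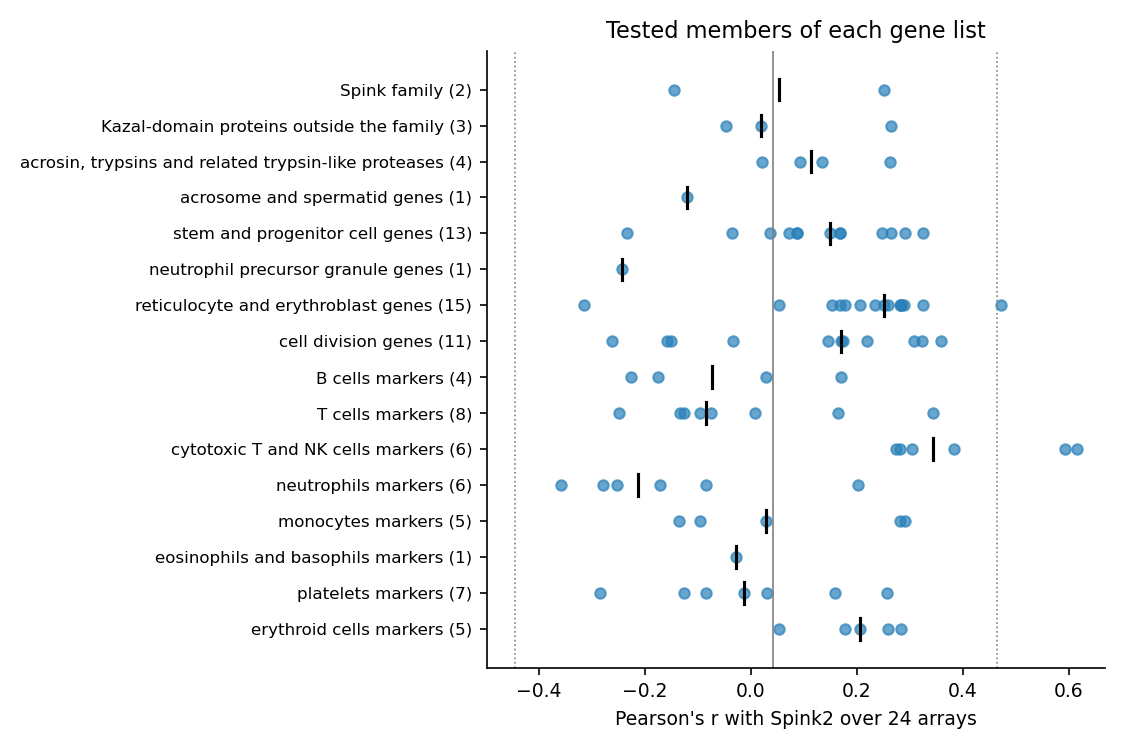
Pearson's r with Spink2 over 24 arrays for each tested member of each gene list (points, number tested in brackets) and the list median (black), with the median over all tested probes (gray line) and their 1st and 99th percentiles (dotted). The 6 cytotoxic markers lie between 0.27 and 0.62, and the neutrophil markers lie mostly below 0.

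The genes most like Spink2 were taken by Pearson's r of the log2 ratio over all 24 arrays, 1 probe per gene among 7624 named genes tested. These arrays share the groups and the reference, so r is a description. The 1st and 99th percentiles of r over all tested probes were -0.44 and 0.47. The highest was Ly49s6 at 0.72, a receptor of the stimulatory Ly49 family of NK cells, followed by Ccl5 at 0.70, a chemokine of T and NK cells. RGD1561841, of no given function, had 0.64. Gzmm, a granzyme, had 0.64. Nkg7 and Gzmk, members of the cytotoxic list above, had 0.62 and 0.59.

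The others were Anapc13 at 0.63, a subunit of the anaphase-promoting complex, Kcnk5 at 0.62, a potassium channel, Edf1 at 0.60, a ribosome-associated coactivator, and Fam111a at 0.60, a protease of the antiviral response. Ccdc23 at 0.59, now named Svbp, is a partner of the vasohibins, and Smdt1 at 0.59 is a subunit of the mitochondrial calcium uniporter. Other tested probes gave 0.51 for Anapc13, 0.43 for Fam111a and 0.39 for Ccdc23.

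Ly49s6 had its highest mean in LPS-G1, as Spink2 did. Its mean ratio was 0.67 ± 0.48 (SD, n = 4) in LPS-G1, with a range of 0.00 to 1.14, and -0.32 ± 0.48 (SD, n = 4) in C-G1, with a range of -0.97 to 0.19. In LPS-G0 it was -0.01 ± 0.62 and in C-G0 -0.30 ± 0.23 (SD, n = 4 each). Ccl5 was 0.35 ± 0.17 in LPS-G1 and -0.16 ± 0.59 in C-G1 (SD, n = 4 each). It was 0.14 ± 0.21 in LPS-G0 and -0.43 ± 0.36 in C-G0 (SD, n = 4 each). Both genes overlapped between LPS and saline on G1. The 12 genes were chosen by r with Spink2 over these same arrays. Group differences like those of Spink2 therefore follow from the choice and are not a separate result. The LPS minus saline differences of the 12 genes ranged from 0.08 to 1.63 on G0 and from 0.22 to 1.18 on G1, with medians of 0.43 and 0.42. On G2 they ranged from -0.03 to 0.43, with a median of 0.09. Fam111a had the largest on each diet, with 1.63, 1.18 and 0.43. With LPS-G0 replicates 3 and 4 left out, the G0 differences ranged from 0.11 to 1.93 with a median of 0.48, and the LPS-G0 means of Ly49s6 and Ccl5 were 0.19 and 0.30 (n = 2).

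The 99th percentile of r over all probes was 0.73 within the 12 LPS arrays and 0.60 within the 12 saline arrays, and differences in r between the injections were not tested. Within the 12 LPS arrays r was 0.92 for Ly49s6, 0.77 for RGD1561841 and 0.75 for Ccl5, against 0.26, 0.22 and 0.57 within the 12 saline arrays. Kcnk5 had -0.02 in LPS and 0.83 in saline arrays. After group means were removed, r was 0.61 for Ly49s6, 0.58 for RGD1561841 and 0.45 for Ccl5, and 0.32 and 0.28 for Nkg7 and Gzmk. Without the 2 arrays farthest from the Spink2 median, LPS-G1 replicates 3 and 4, r was 0.61 for Ly49s6 and 0.64 for Ccl5. Without LPS-G0 replicates 3 and 4 it was 0.73 and 0.72. From the Cy3 signal alone Ly49s6 had 0.44 and Ccl5 0.74, so Ly49s6 was not first there.

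**Figure D5:**
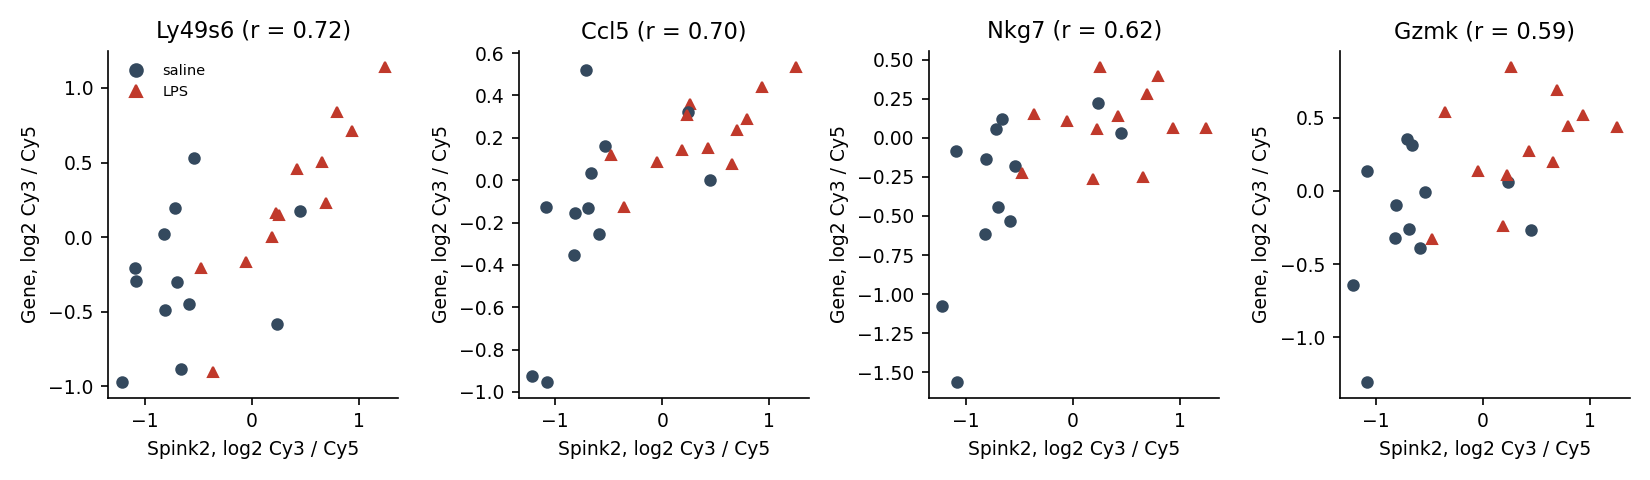
Log2 Cy3 over Cy5 of Ly49s6, Ccl5, Nkg7 and Gzmk against that of Spink2 on 24 arrays, with saline as dark circles and LPS as red triangles. Pearson's r is 0.72, 0.70, 0.62 and 0.59, and the Ly49s6 points of the LPS arrays lie close to a line (r = 0.92).

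The genes with the lowest r were Tmbim6, an inhibitor of cell death in the endoplasmic reticulum, and Icos, a costimulatory receptor of T cells, both at -0.64. Lpgat1, a lysophospholipid acyltransferase, had -0.63, Pip5k1c, a phosphoinositide kinase, -0.61, Fbxl5, an iron-sensing ubiquitin ligase subunit, -0.60, and Lyzl6, a lysozyme-like protein, -0.59. Icos was -0.95, -0.64 and -0.32 in LPS minus saline on G0, G1 and G2, and -0.61 on G0 without LPS-G0 replicates 3 and 4.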

How the data were processed

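Total RNA from blood was labeled and hybridized against a common reference on Agilent two-color rat arrays. The authors deposited Agilent Feature Extraction output (version 10.10.1.1 per the file headers, 10.7.3.1 in the submitters' processing notes). Per the file headers, the deposited processed intensities had the background subtracted and the dyes balanced by Lowess. The log10 ratios deposited by the authors are processed Cy5 over Cy3, beside deposited flags for outliers, background and other spot properties. The deposited series table repeats the log10 values of the arrays, with all 1511424 equal within 1e-06. A ratio is 0 where both channels are surrogate values.

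Log ratios were turned to log2 Cy3 over Cy5. Control spots and outlier spots (679 to 1133 per array) were left out, and the spots of a probe averaged. The 10708 of 30367 probes that exceeded background in Cy3 on each of the 4 arrays of any group were tested. A one-way model of the 6 groups was fitted with limma 3.58.1 (R 4.3.3, with data.table version 1.17.8), two-sided, with Benjamini-Hochberg adjustment, and tested on simulated data. The number of arrays limits the precision. The highest mean Cy3 chose the probe of a listed gene. Current names came from RefSeq by accession.

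Spink2 and the gene lists were chosen with earlier results of these data known. Named genes were Spink2, detected Spink genes, the 12 highest and 6 lowest r, and, of each list, called members and the 3 of highest mean Cy3. Of these, 1 is not reported here. List members at an unadjusted p under 0.05 and the markers named for the blood label were added after their values were seen.

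Nothing in the labels states that equal replicate numbers share an animal or day. Alternatives were normexp and loess, Cy3 alone, the 16 arrays without C-G1 and C-G2, slide or replicate number as a block, array weights, other filters, Tukey's test, an eBayes trend, outlier spots kept, series-table values and arrays left out. Single spots, levels under these settings, contrasts over diets, r within subsets, and list values without LPS-G0 replicates 3 and 4 or without single C-G0 or LPS-G0 arrays were chosen after seeing the data.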

Additional observations from a re-analysis of the deposited data

Results flagged for a closer look

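Of 138 groups of 4 arrays examined for both Spink2 probes, the 18 genes most and least like Spink2, Spink4, Spink7 and the summed cytotoxic signal, 5 held an array far from the other three, and chance gives about 1 in 20. Spink2 was not among them. Gzmk was -0.24 in LPS-G1 replicate 2, where the others were 0.44 to 0.52. Kcnk5 was -0.11 in C-G1 replicate 3, where the others were -0.74 to -0.63. Edf1 and Pip5k1c were 0.38 and -0.26 in LPS-G0 replicate 2, where the others were 0.19 to 0.21 and -0.12 to -0.09. Spink4 was 0.13 in LPS-G0 replicate 3, where the others were 0.41 to 0.47. All are log2 ratios of Cy3 over Cy5.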

How the results depend on the processing

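Under normexp and loess, the Spink2 level was -0.12 in C-G0, -0.15 in C-G1 and 0.33 in LPS-G1. LPS-G0 minus C-G0 was then 0.24, LPS-G1 minus C-G1 0.49 and C-G2 minus C-G0 0.15. The single spots moved LPS-G1 minus C-G1 (2.43 and 1.01) and C-G1 minus C-G0 (-0.65 and 0.44). Other processing moved no Spink2 difference by 1 residual SD (0.41), with no test behind that measure.

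Replicate numbers were not taken as pairs, since the lowest same-number correlation of deviations was under 0.1 in all 7 comparisons (-0.26 to 0.04). In no comparison did all 4 samples correlate best with their own number, but 3 did in LPS-G1 vs. C-G1, LPS-G2 vs. C-G2 and C-G2 vs. C-G0. The mean same-number correlations there were 0.22, 0.17 and 0.33, beside -0.07, -0.05 and -0.11 for other numbers. They were 0.11 and 0.17 in LPS-G0 and C-G1 vs. C-G0, and -0.05 and -0.04 in LPS-G1 and LPS-G2 vs. LPS-G0. Some variation was thus shared by number. In each comparison of LPS with saline on the same diet, arrays of the same number also shared a slide. Number and slide are thus confounded there, and in part in the other comparisons. The source of the shared variation was not tested. With a replicate block, the Spink2 differences kept their values, with a standard error of 0.24. List members called went from 0 to 6 in C-G1 vs. C-G0 and to 2 in LPS-G1 vs. LPS-G0, while all probes called went from 3 to 88 and from 3 to 100 of 10708.

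The count of list members called in LPS-G1 vs. LPS-G0 was 1 with normexp and loess, 4 over 16 arrays and 8 with array weights, which gave 3 in LPS-G0 vs. C-G0. Beside these, 7 of 10708, 102 of 10313 and 248 of 10708 probes were called in LPS-G1 vs. LPS-G0, and 149 with array weights in LPS-G0 vs. C-G0. All other settings gave 0, apart from arrays left out.

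When each array was left out, the Spink2 level ranged from -0.90 to -0.74 in C-G0, 0.18 to 0.53 in LPS-G0, -1.01 to -0.83 in C-G1, 0.64 to 0.99 in LPS-G1, -0.32 to 0.05 in C-G2 and -0.10 to 0.20 in LPS-G2. The differences ranged from 1.01 to 1.36 for LPS-G0 minus C-G0, 1.57 to 1.92 for LPS-G1 minus C-G1, -0.02 to 0.35 for LPS-G2 minus C-G2 (negative without C-G2 replicate 4), -0.19 to -0.01 for C-G1 minus C-G0, 0.50 to 0.87 for C-G2 minus C-G0, 0.26 to 0.68 for LPS-G1 minus LPS-G0 and -0.50 to -0.11 for LPS-G2 minus LPS-G0. List calls ranged from 0 to 4 in C-G1 vs. C-G0 and 0 to 1 in C-G2 vs. C-G0, the highest without C-G0 replicate 4, and 0 to 2 in LPS-G1 vs. LPS-G0, the highest without C-G1 replicate 2. In the other comparisons they were 0 to 0. The share of all probes called was not counted with each array left out, so nothing is read from these list calls.

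Of the 12 genes most like Spink2, 11 or 12 stayed among the 100 highest under Spearman's rho, slide means removed, the farthest arrays left out, Cy3 alone, normexp and loess, and without LPS-G0 replicates 3 and 4. After group means were removed 3 did, within the LPS arrays 3, within the saline arrays 2, and on slides 1, 2 and 3 alone 5, 4 and 3. Kcnk5 turned to -0.023 within the LPS arrays. The cause was not tested. Signal over background limits all Spink2 values, since 11 of 24 arrays were not well above it.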
